A study of Zea mays with 6 samples.

Results

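The cytokinin oxidase genes CKX8 (GRMZM2G114427) and CKX6 (GRMZM2G404443) and the isopentenyltransferase gene IPT (GRMZM2G102915) were read in maize (Zea mays) roots labelled Fe-deficient and Fe-sufficient. They were 3 of the 39219 genes on the array. Each had 1 transcript, and 7 of the 139000 transcript probes read them. The genes had been selected on the comparison described here: in an earlier pass over a list of cytokinin genes they were the members that passed the threshold when limma p-values were adjusted over that list. Their differences between the groups are therefore given as a description, with no test. The nitrate reductase gene NAR (GRMZM5G878558), also known beforehand to differ, was read on the same arrays for comparison.

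Cytokinins are adenine-derived hormones that control cell division, root growth and the response of the plant to its nutrient supply. Isopentenyltransferases make the precursors of active cytokinins by joining a prenyl side chain to an adenine nucleotide, whereas cytokinin oxidases (also called cytokinin dehydrogenases) cut that side chain off and so inactivate the hormone irreversibly. Cytokinins are perceived by histidine kinase receptors, and the signal passes through phosphotransfer proteins to response regulators in the nucleus. In Arabidopsis roots, nitrate supply raises the transcript of an isopentenyltransferase gene, and nitrate reductase carries out the first step of nitrate assimilation.

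Plants of PR33T56, a hybrid by the sample labels and an inbred line by the study's methods, were 19 d old at harvest. Those of both groups first grew in a solution free of Fe that contained ammonium nitrate. For the last 7 d the Fe-deficient plants stayed without Fe-EDTA (0 µM) and the Fe-sufficient plants received 100 µM Fe-EDTA, so the latter were resupplied after deprivation. Each of the 6 single-colour arrays, 3 per group, held RNA of whole roots pooled from 6 plants, and the 3 replicates were separate cultivations. The probes were designed on the inbred line B73 and not on PR33T56. In bulk root RNA, fewer cells of a type and less RNA per cell cannot be told apart.

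The number of arrays limits the precision of every value. Over all 59756 transcripts, limma called 51, or 0.0853% (adjusted p no higher than 0.05, change no smaller than 1.5-fold), with 42 higher (0.0703%) and 9 lower (0.0151%) in Fe-deficient roots. These counts were unstable: 0 were called with the replicate number as a block (3523 at an unadjusted p up to 0.05 and 1.5-fold), and between 2 and 1096 with an array left out. Without Fe-sufficient array 1 the balance turned, with 162 higher and 934 lower. Of the 28 iron-related genes that the study tabulates, limma called 0 by their brightest transcript, 2 (7.14%, against 10.3% of all transcripts) had an unadjusted p no higher than 0.05 and the lowest adjusted p was 0.463. Over all 52 of their transcripts limma also called 0, 7 (13.5%) had such a p, and the groups did not overlap for 3 that were higher and 8 that were lower in Fe-deficient roots. The study tabulates transcripts of all these genes as higher in Fe-deficient roots, at the same thresholds. Here, by brightest transcript, 13 of the 28 were above 0 and 15 below. Groups did not overlap for 2 that were higher (7.14%, against 9.74% of all genes by brightest transcript) and 3 that were lower (all genes, 7.52%). Why these readings differ from the study's was not tested. On this basis the labels could not be checked against the treatment and the groups are named here as the labels give them. By brightest transcript, 13 of the 28 were lowest on Fe-sufficient array 1 (46.4%, against 16.2% of all genes) and 11 on Fe-deficient array 2 (39.3%, against 23%). The nicotianamine synthase gene nas2 (GRMZM2G030036) was read at 8.90 on Fe-sufficient array 1, against 13.60 and 13.41 on the other Fe-sufficient arrays and 12.72, 11.82 and 12.92 on the Fe-deficient ones. GRMZM2G063306, which the study names as a phytosiderophore efflux transporter, was read at 8.49, against 13.51 and 12.52 and against 12.61, 11.14 and 12.59. The gene ys1 (GRMZM2G156599), for an iron-phytosiderophore uptake transporter, did not stand apart on that array, at 11.34 against 11.81 and 11.11 on the others of its group. On the Fe-deficient arrays ys1 was read at 11.08, 10.90 and 10.86, lower without overlap, whereas the study's RT-PCR found it raised by Fe deficiency. Values of CKX8, CKX6 and IPT without that array are given below. The arrays labelled Fe-sufficient lay at positions 7 to 9 of 1 slide and those labelled Fe-deficient at positions 10 to 12, and position and group cannot be told apart. Of 7 root marker genes, 6 were above background on all arrays and the aquaporin TIP2-3 on none. Of 14 photosynthetic genes, 9 were above background on all arrays and 2 on none. Limma called 0 genes of either marker list, and the part of tissue make-up in the values below was not tested.

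CKX8, CKX6 and IPT were all higher on each array labelled Fe-deficient than on every array labelled Fe-sufficient. The measured difference was 2.27-fold for CKX8, in part from a probe near background, and 1.63-fold for both CKX6 and IPT. Non-overlapping groups in this direction were found for 3 of the 3 transcripts and for 9.75% of all transcripts, and limma called 0 of the 3. As the genes were selected on this comparison, nothing follows from these counts. All 3 transcripts were above background, the 95th percentile of the random control probes, on 6 of 6 arrays.

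CKX8 was read at log2 levels of 9.47, 9.41 and 9.09 in Fe-deficient roots and of 7.95, 8.47 and 8.00 in Fe-sufficient roots. The Fe-deficient arrays thus all lay above the Fe-sufficient ones, with 0.62 on the log2 scale between the lowest of the former and the highest of the latter. The group means were 9.32 ± 0.21 and 8.14 ± 0.29 (SD, n = 3 each), a log2 difference of 1.19. This value averages 2 probes, of which 1 was above background on none of the Fe-sufficient arrays, so its exact size is uncertain. Array 3 was the lowest of the Fe-deficient group, and array 2 stood above the other Fe-sufficient arrays.

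CKX6, the other oxidase gene, was read at 12.47, 12.13 and 12.52 in Fe-deficient roots and at 11.52, 11.75 and 11.73 in Fe-sufficient roots. Its groups were 0.38 apart on the log2 scale, and Fe-deficient array 2 lay closest to the other group. The means were 12.37 ± 0.21 and 11.67 ± 0.13 (SD, n = 3 each), a log2 difference of 0.71 that 2.97% of all transcripts equalled or exceeded.

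IPT, placed by its symbol on the synthesis side of the pathway, was read at 9.67, 9.61 and 9.84 in Fe-deficient roots and at 9.23, 8.79 and 8.98 in Fe-sufficient roots. The Fe-deficient arrays lay close together, and the Fe-sufficient arrays were spread more widely and did not reach them. The means were 9.71 ± 0.12 and 9.00 ± 0.22 (SD, n = 3 each), a log2 difference of 0.71, equalled or exceeded by 2.96% of all transcripts. By their symbols, a gene for making the hormone and 2 genes for degrading it were therefore all read higher on the same arrays.

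**Figure D1:**
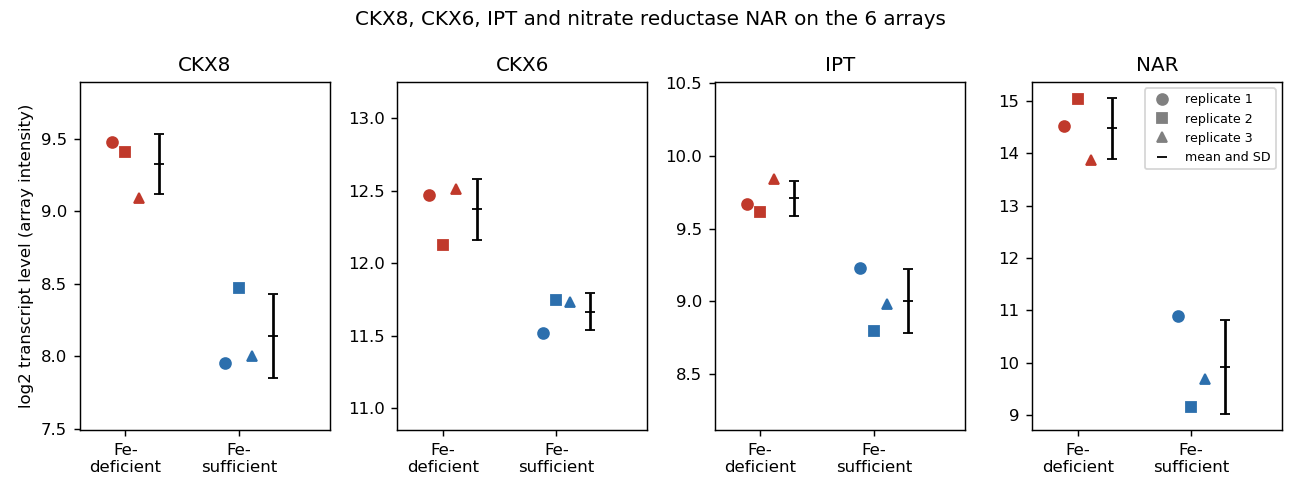
Log2 transcript level (array intensity) of CKX8, CKX6, IPT and the nitrate reductase NAR on each of the 6 arrays, in a panel per gene with its own axis range. Marker shapes give the replicate number and bars the group mean and SD (n = 3). In all 4 panels the arrays labelled Fe-deficient lie above those labelled Fe-sufficient, and the gap is widest for NAR (23.6-fold between means, as measured).

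CKX6 and IPT, both at 1.63-fold, were the smallest differences inside the selection. The genes of the cytokinin list next to them by p-value were IPT4 (GRMZM2G104559), at 1.29-fold, and the oxidase gene CKX10 (GRMZM2G348452), at 1.52-fold. The groups of IPT4 did not overlap, and those of CKX10 did.

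The 7 probes were also read one at a time, by their position in the transcript, on a linear intensity scale. The Fe-deficient arrays were the brighter ones without overlap at all 7 probes, but the size of the difference was not even along the transcripts. As the genes were selected on this comparison, nothing follows from that count, and the share among all probes is not given here. The CKX8 transcript rested on 2 probes, of which 1 was near background. At position 1552 the intensities were 1413, 1251 and 1349 in Fe-deficient roots and 366, 598 and 370 in Fe-sufficient roots, a 3.09-fold difference between the means of log2 values. At position 550 they were 358, 370 and 220.2 against 167, 211 and 177. That probe was above background on 2 of the 3 Fe-deficient and 0 of the 3 Fe-sufficient arrays, so the size of its difference is not known. The measured value was 1.68-fold, and it was 1.10-fold with the Fe-sufficient arrays raised to background. The latter set the mean of the Fe-deficient arrays against, on each Fe-sufficient array, the higher of the lowest signal above background and the probe's own signal. Fe-deficient array 3, also not above background, entered as measured, so 1.10-fold is not a strict lower bound. The level of CKX8 in Fe-sufficient roots was thus carried above background by 1 probe.

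For CKX6 both probes were above background on all arrays. The intensities at position 652 were 7184, 5591 and 6708 in Fe-deficient roots and 3476, 5027 and 4002 in Fe-sufficient roots (1.57-fold). At position 1669 they were 4488, 3593 and 5110 against 2487, 2353 and 2888 (1.70-fold). Fe-deficient array 2 was the dimmest of its group at both positions, whereas the Fe-sufficient arrays changed order between them.

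The IPT transcript had 3 probes. At position 990 the intensities were 860.3, 772 and 918 in Fe-deficient roots and 592, 685 and 405 in Fe-sufficient roots (1.55-fold), and at position 1417 they were 829, 802 and 907 against 701, 367 and 605 (1.57-fold). Position 1779 gave 529, 742 and 817 against 391, 288 and 328 (2.05-fold as measured), but Fe-sufficient array 2 was not above background there, so that value is less certain than the others. Which of the Fe-sufficient arrays was dimmest differed among the probes, array 3 at position 990 and array 2 at the other positions.

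**Figure D2:**
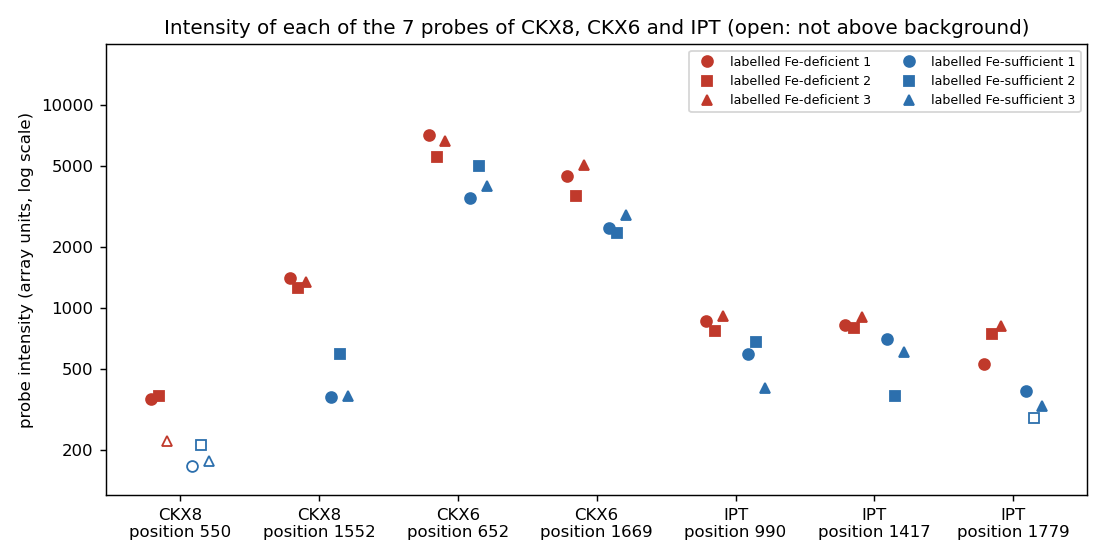
Intensity (array units, log axis) of each of the 7 probes of CKX8, CKX6 and IPT on the 6 arrays, with colour for the labelled group, shape for the replicate number and open symbols for probes not above background. Groups do not overlap at any probe of these genes, which were selected on this comparison. The CKX8 probe at position 550 is open on all Fe-sufficient arrays and on Fe-deficient array 3.

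The differences were recomputed with each array left out and under 8 other ways of processing the intensities. CKX8 ranged from 1.09 on the log2 scale without Fe-sufficient array 1 to 1.35 without Fe-sufficient array 2. CKX6 ranged from 0.63 without Fe-sufficient array 1 to 0.83 without Fe-deficient array 2. IPT was lowest without Fe-sufficient array 2, at 0.60 (1.52-fold), and highest without Fe-sufficient array 1, at 0.82 (1.77-fold). Without the latter array, the one with low nas2 and GRMZM2G063306, CKX8 and CKX6 thus differed less and IPT more. All 3 kept their direction, which leaving out an array could not reverse, as their groups did not overlap. The same Fe-sufficient arrays thus moved IPT and CKX8 in opposite directions. Under the 8 ways of processing, CKX8 lay between 2.21-fold and 2.45-fold, CKX6 between 1.62-fold and 1.66-fold and IPT between 1.60-fold and 1.71-fold.

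**Figure D3:**
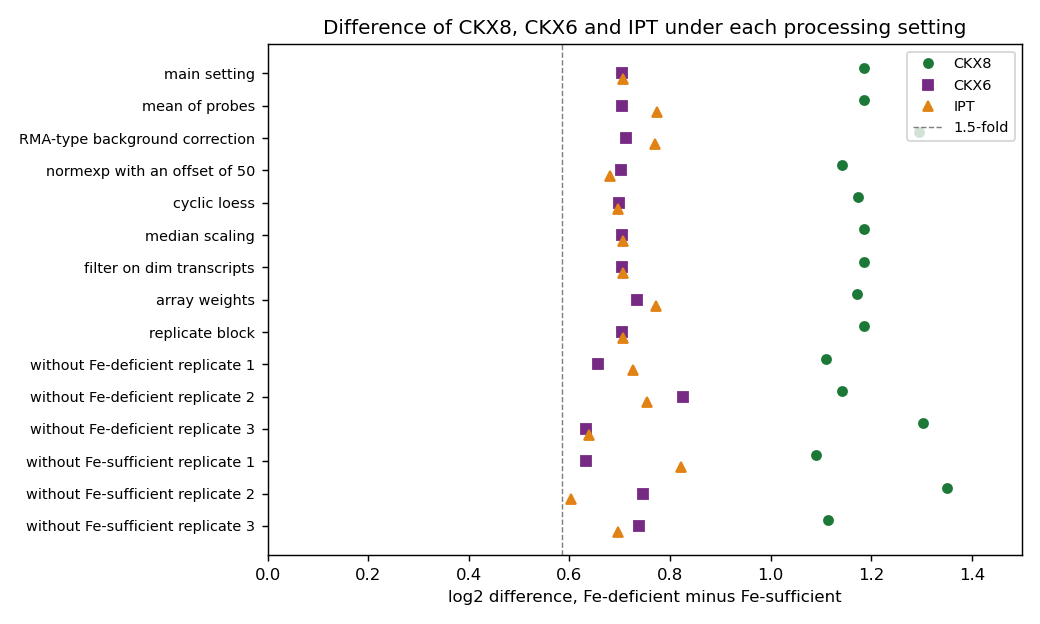
Log2 difference, Fe-deficient minus Fe-sufficient, of CKX8, CKX6 and IPT under the main setting, 8 alternative settings and with each of the 6 arrays left out. The dashed line marks a 1.5-fold difference. All points lie to its right, with IPT closest to it at 0.60 without Fe-sufficient replicate 2.

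NAR, which reduces nitrate to nitrite, was read on the same arrays at log2 levels of 14.51, 15.04 and 13.88 in Fe-deficient roots and 10.90, 9.16 and 9.69 in Fe-sufficient roots. Its groups did not overlap either, and they were 2.98 apart on the log2 scale. The group means, 14.48 ± 0.58 and 9.92 ± 0.89 (SD, n = 3 each), differed by 4.56 on the log2 scale. The NAR probe at position 2724 was not above background on Fe-sufficient array 2, so the exact size is uncertain. By probe the measured difference was 27.5-fold there and 20.3-fold at position 1663. The direction was that of CKX8, CKX6 and IPT, and the size was far larger: the 3 cytokinin genes differed by 1.19, 0.71 and 0.71. Since the 6 arrays fall into separate clusters by group, a pooled correlation would largely reflect the group difference, and no coefficient with NAR is given. The relation is described by the order of arrays within each group.

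Within the groups the 4 genes did not share an order. Among Fe-deficient arrays NAR was highest on array 2 (0.56 above its group mean on the log2 scale) and lowest on array 3 (0.60 below it). CKX8 was also lowest on array 3, at 0.23 below its group mean, and was highest on array 1. CKX6 and IPT had the reverse order to NAR, highest on array 3, at 0.14 above their group means, and lowest on array 2. Single probes did not all keep these orders. Array 2 was the dimmest of the group at position 1552 of CKX8, and array 1 the brightest at position 652 of CKX6 and the dimmest at position 1779 of IPT.

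Among Fe-sufficient arrays NAR was highest on array 1 (0.98 above its group mean) and lowest on array 2 (0.76 below it). Its probes at positions 1663 and 2724 shared the order, although the latter was not above background on array 2. IPT kept the order of NAR, at 0.23 above and 0.21 below its group mean on the same arrays. The IPT probes at positions 1417 and 1779 shared the order, but at position 990 array 2 was the brightest of the group and array 3 the dimmest. CKX8 and CKX6 had the reverse order, with array 2 highest (0.33 and 0.08 above) and array 1 lowest (0.19 and 0.15 below). For CKX6 this order was not shared by its probes, since array 2 was the brightest of the group at position 652 and the dimmest at position 1669. None of the 3 cytokinin genes thus followed NAR within both groups, and with 3 arrays per group such orders were not tested.

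Likeness of pattern was measured as the root mean square difference of log2 levels centred on their mean over the 6 arrays. It was taken among 43209 transcripts above background on all arrays. These included transcripts of 2138 other genes with an informative name, and the nearest genes given here were picked among those only. Nearest to CKX8 were gpc4 (GRMZM2G176307), a cytosolic glyceraldehyde-3-phosphate dehydrogenase gene (0.174), the glutamine synthetase gene gln1 (GRMZM2G098290, 0.183) and the aldehyde dehydrogenase gene ALDH7 (GRMZM2G130440, 0.236). Nearest to CKX6 were the expansin gene expA3 (GRMZM2G074585, 0.0892), sca1 (GRMZM2G332976, 0.111) and btf3 (GRMZM2G041881, 0.123). For IPT they were NLP8 (GRMZM2G176655, 0.104), LIP1P-2 (GRMZM2G101698, 0.106) and another transcript of sca1 (0.110).

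NAR was distant by this measure, at 1.83 from CKX8, 2.06 from CKX6 and 2.01 from IPT. At least 99.84% of the 43209 transcripts, named or not, were nearer to each of the 3 genes. The measure counts the size of a difference as well as its direction. Ranked by Pearson correlation instead, which ignores size, the named genes nearest to CKX8 were GLB1, TAZ1 and the nitrite reductase gene NIR. The named genes nearest to CKX6 were pdh2, cys1 and sca1, and those nearest to IPT were Emp5, eno2 and RR8. Only sca1, for CKX6, was named by both rankings for the same gene. By Pearson correlation NAR ranked 612 for CKX8, 1589 for CKX6 and 491 for IPT among the 43209 transcripts, and so was not distant. Over arrays that fall into separate groups, such a rank largely reflects the shared group difference. These lists are descriptions over 6 arrays and carry no p-value.

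The array held 27 other genes with a cytokinin symbol, read here by the brightest transcript of each. Limma called 0 of them in either direction, with a lowest adjusted p of 0.48 and 3 (11.1%) with an unadjusted p no higher than 0.05, against 10.3% of all transcripts. Groups did not overlap for 3 genes that were higher in Fe-deficient roots (11.1%, against 9.75% of all transcripts) and for 1 that was lower (all transcripts, 7.65%). CKX8, CKX6 and IPT had been set apart because they passed on this same comparison. That lowers the counts and shares among the genes left, so nothing follows from them. The median log2 difference was 0.19, with 19 of the 27 above 0, beside a median of 0.01 over the brightest transcripts of all genes, of which 51.95% were above 0. With each array left out in turn the median of the 27 lay between 0.12 and 0.24. Over all 51 of their transcripts the median was 0.07.

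The degradation genes were 8 besides CKX8 and CKX6, with a median log2 difference of 0.27 and a range of -0.18 to 0.86. The median depended on single arrays, at 0.08 without Fe-deficient array 2 and 0.13 without Fe-sufficient array 1. CKX12 (GRMZM2G008792) was the only one whose groups did not overlap, at 11.01, 10.99 and 10.92 in Fe-deficient and 10.44, 10.82 and 10.72 in Fe-sufficient roots (1.24-fold, limma adjusted p = 0.505). CKX4 (GRMZM5G817173) had the largest difference of the 8, 1.81-fold (limma adjusted p = 0.604), which rested on 1 array: it was read at 8.63, 10.58 and 8.10 against 8.13, 8.30 and 8.30. Without Fe-deficient array 2 its log2 difference went from 0.86 to 0.12. CKX4b (GRMZM2G024476) had the same shape, at 8.73, 9.96 and 8.51 against 8.47, 8.61 and 8.32, and went from 0.60 to 0.15. For CKX10, at 10.06, 10.85 and 10.25 against 10.07, 9.80 and 9.48, the difference without that array was 0.37. CKX8, CKX6 and IPT were not highest on Fe-deficient array 2, and without it CKX6 and IPT differed more, at 0.83 and 0.75, and CKX8 by 1.14.

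Of the 2 other synthesis genes, IPT4 was read at 7.87, 7.70 and 8.03 in Fe-deficient and 7.50, 7.61 and 7.39 in Fe-sufficient roots, without overlap (limma adjusted p = 0.48), and was above background on 3 and 1 arrays of the groups. IPT1 (GRMZM2G097258) differed by 1.17-fold with overlapping groups. Its highest array was Fe-sufficient array 1 (limma adjusted p = 0.729). The conjugation genes czog1 and CZOG2 encode enzymes that add a glucose to the cytokinin zeatin. The czog1 transcript (GRMZM2G168474) differed by 1.30-fold and went from a log2 difference of 0.38 to 0.06 without Fe-deficient array 2, and CZOG2 (GRMZM2G110511) was above background on no array.

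Of the 3 receptor genes, limma called 0, with 0 at an unadjusted p up to 0.05, and 2 were read lower and 1 higher in Fe-deficient roots. The histidine kinase gene hk2 (GRMZM2G471529) was read at 13.13, 12.36 and 13.01 in Fe-deficient and 13.24, 13.44 and 13.22 in Fe-sufficient roots, so that its groups did not overlap and the Fe-deficient mean was 1.38-fold lower (limma adjusted p = 0.506). Fe-deficient array 2 was again the farthest from the rest, and without it the log2 difference was -0.23 in place of -0.47. For the receptor genes hk3 and HK1 the differences were -0.23 and 0.19, with overlapping groups.

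Downstream, the 3 phosphotransfer genes had a median difference of 0.12 (0.03 without Fe-sufficient array 3 and 0.27 without Fe-sufficient array 1) and overlapping groups. The 9 response regulator genes, with a median of 0.17, lay on both sides of 0. Without Fe-deficient array 2 their median was 0.03, and crr1 (GRMZM2G040736) went from 0.39 to -0.07. RR4 (GRMZM2G319187), a type-A regulator of the kind whose transcript cytokinin raises, was read by its brightest transcript at 13.10, 12.84 and 13.23 in Fe-deficient and 12.86, 12.54 and 12.55 in Fe-sufficient roots (1.32-fold, limma adjusted p = 0.484). Its groups overlapped through a single array of each, and its 2 other transcripts had differences of -0.20 and -0.51. RR8 (GRMZM2G099797) was the regulator without overlap by its brightest transcript, at a difference of 0.17. Its other transcripts overlapped, at 0.38 and -1.04. RR3 (GRMZM2G035688) and RR6 (GRMZM2G129954) were read lower, at -0.44 and -0.35, with RR3 above background on 0 of the Fe-deficient arrays and 1 of the Fe-sufficient arrays. The other transcript of RR3 was at -0.28 and that of RR6 at -0.87.

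Of the 27 genes, 10 (37%) were highest on Fe-deficient array 2, against 20.6% of all genes. The median without that array was 0.12. Of the 14 photosynthetic genes, 5 were highest on it and 3 on Fe-sufficient array 2, and their median log2 level, 8.36, was not the highest, with 8.41 on Fe-sufficient array 2. The brightest transcript of lhcb6 (GRMZM2G092427), a light-harvesting protein gene of leaves, was read at 12.97, against 9.02 to 9.75 on the other arrays. For lhcb5 (GRMZM2G149428) the level was 9.94, against 8.34 to 9.10. In contrast, lhcb3 (GRMZM2G155216) was highest on Fe-sufficient array 3, at 13.31, against 10.43 to 11.24. The summed intensity of the 14 genes ranged from 30942 to 44404 in Fe-deficient roots, highest on array 2, and from 23637 to 31751 in Fe-sufficient roots, a sum to which bright genes contribute most, while the gene for the Rubisco activase (rca1) was above background on no array. The part of leaf-type RNA in the readings of CKX4, CKX4b, crr1 and czog1 was not tested. The study's supplement annotates 6 of these genes as cytokinin dehydrogenases or type-A regulators, a list that the study chose on these samples and that is not independent evidence of a direction. Of these 6 genes (CKX4b, CKX4, cko2, cko3, RR4 and RR7), limma called 0, 1 had an unadjusted p no higher than 0.05, 5 were above 0, and the groups overlapped for all 6.

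**Figure D4:**
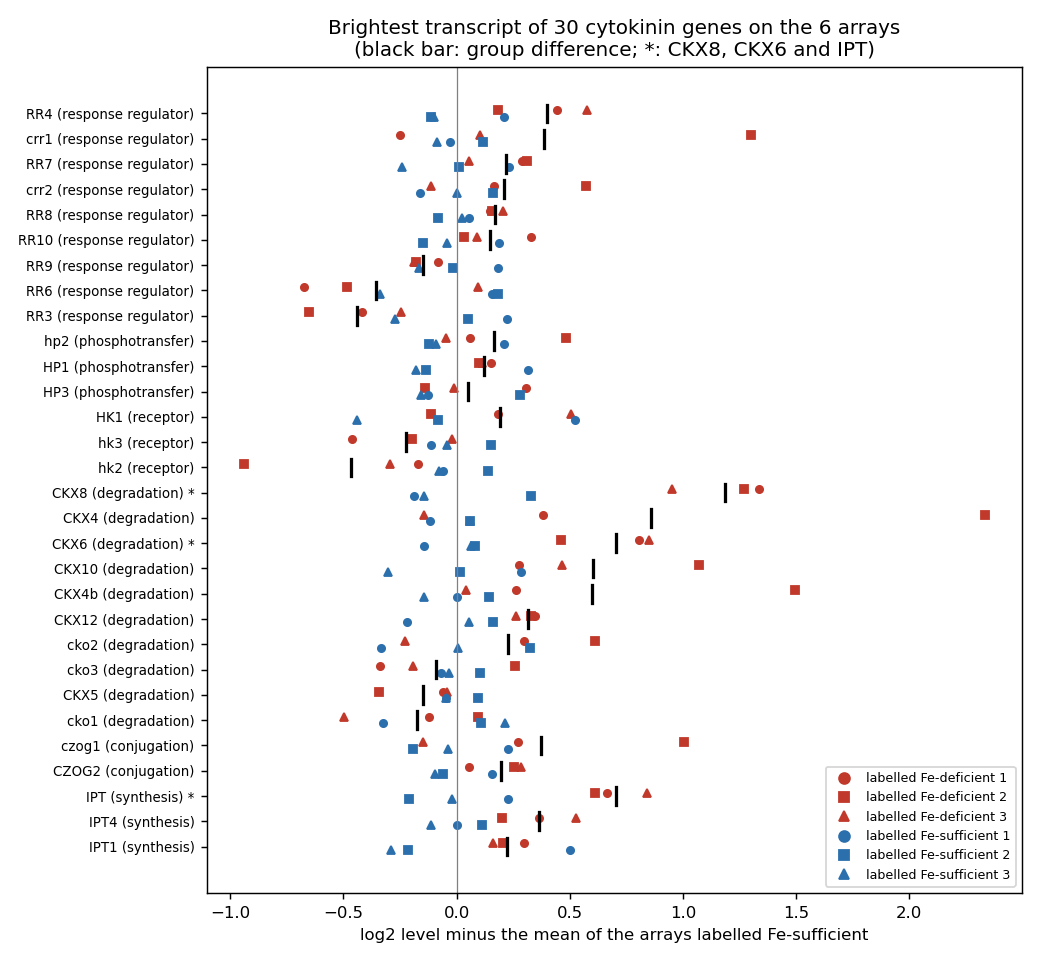
Log2 level of the brightest transcript of each of 30 cytokinin genes on the 6 arrays, minus the mean of the arrays labelled Fe-sufficient, ordered by role, with a black bar at the group difference and an asterisk at CKX8, CKX6 and IPT. The squares of Fe-deficient array 2 stand apart for CKX4, CKX4b, crr1 and czog1, whereas the Fe-deficient arrays of CKX8, CKX6 and IPT all lie to the right of the Fe-sufficient ones.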

How the data were processed

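Root RNA labelled with Cy3 was hybridised to 6 single-colour NimbleGen arrays of 139000 transcript probes and 1663 random control probes. The deposited files hold linear probe intensities, quantile-normalized by the authors. The submitters' processing notes name RMA. The sources used here do not say whether background was subtracted. A value table deposited beside the array files held identical numbers (largest difference 0).

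Background correction and quantile normalization, planned for raw values, were therefore left out. Log2 was taken of the intensities, and the 1 to 3 probes of a transcript were summarised by median polish. Groups were compared with lmFit and eBayes of limma 3.58.1 (R 4.3.3), Fe-deficient minus Fe-sufficient, without covariates. The Benjamini-Hochberg adjustment covered all 59756 transcripts, and a call needed an adjusted p no higher than 0.05 and a change no smaller than 1.5-fold, the thresholds in the study's methods. The procedure was tested on simulated data. A probe was above background if it exceeded the 95th percentile of its array's random probes, and a transcript if at least 1 of its probes did. That percentile was between 229 and 359, and 58.37% to 66.52% of the probes of an array exceeded it.

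Gene names came from a RefSeq table of another assembly, used for names only, in which 18171 of 39219 genes matched 1 entry and 519 several. The genes named were CKX8, CKX6, IPT and NAR, every gene with a cytokinin symbol, the study's cytokinin genes, and for each of CKX8, CKX6 and IPT the 3 nearest named genes by pattern. The genes and lists were chosen with earlier results of these data known. The marker and iron genes nas2, GRMZM2G063306, ys1, lhcb3, lhcb5, lhcb6, Ppdk1, rca1 and TIP2-3 fall outside that rule and were named after their values were seen. Alternatives were single probes, each array left out, a block for the replicate number, array weights, the mean of probes, a dim-transcript filter, median scaling, cyclic loess and 2 background corrections (RMA-type, and normexp with offset 50). Figures were drawn with matplotlib 3.10.9 and numpy 2.4.6, and tables handled with pandas 2.3.3, under Python 3.11.15.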

Additional observations from a re-analysis of the deposited data

How the results depend on the processing

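CKX8, CKX6 and IPT kept their direction under all alternatives run. With an array left out this was fixed in advance, as their groups did not overlap. The dim-transcript filter and the replicate block left their differences as in the main setting. By single probes the measured log2 difference of CKX8 was 1.63 at position 1552 and 0.74 at position 550, and that of IPT was 1.04 at position 1779. The latter 2 values are uncertain. The CKX8 probe at position 550 was above background on 2 of 6 arrays. With its Fe-sufficient arrays raised to background the value was 1.10-fold, which is not a strict lower bound. The IPT probe was not above background on Fe-sufficient array 2. Limma called 0 of the 27 other cytokinin genes under every alternative run. Those 27 were left after the genes that passed on this comparison had been set apart, so nothing follows from that count. The number of transcripts called over the array was less stable. RMA-type background correction gave 28 (24 higher, 4 lower) and array weights 165 (120 higher, 45 lower), against 51 (42 higher, 9 lower).

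With each array left out, limma called between 2 and 1096 transcripts, between 2 and 162 of them higher and between 0 and 934 lower. The count was 1096 without Fe-sufficient array 1, 3 without Fe-sufficient array 2, 6 without Fe-sufficient array 3, and 2, 22 and 21 without Fe-deficient arrays 1, 2 and 3. The cause was not tested.

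With the replicate block, limma called 0 transcripts, 0 higher and 0 lower, and 3523 had an unadjusted p of at most 0.05 and at least 1.5-fold, against 3190 without the block. The labels share replicate numbers, but same-numbered arrays deviated from their group means with correlations of -0.12, -0.00824 and 0.0702, so the arrays were not treated as paired. Probes near background, as at position 550 of CKX8, and 3 arrays per group limit the differences that can be read.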
